A study of Mus musculus with 6 samples.

Results

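Histone genes were followed through the polyadenylated RNA of activated mouse T cells labelled wild type or Drp1 KO. Rows of the deposited count table were taken when the gene symbol began with Hist1h, Hist2h, Hist3h, Hist4h, H2af, H3f3 or H1f. Of the 45808 rows in the table, 91 matched, and the 54 with 10 or more counts summed over the 6 libraries are reported. They comprise 41 of the 70 rows named Hist, after the replication-dependent clusters, and 13 of the 21 rows named as variant histones. These classes follow the gene symbols, and a Hist symbol alone does not show that a gene is replication-dependent. A further 14 Hist rows and 6 variant rows (H1fnt, H2af-ps, H2afb1, H2afb2, H2afb3 and H2afy3) were listed at 0 in all libraries. At the lower limit, Hist4h4 had 11 summed counts and Hist1h3b and Hist2h2ac had 12, whereas Hist1h3d, Hist1h4j and Hist1h4k, with 9 each, were left out. Among variants, H2afy2 with 50 summed counts was the lowest reported and H3f3c with 6 was left out.

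The study compared wild-type T cells with T cells of the genotype Drp1-/-, called KO here, with 3 libraries per group. All cells came from the spleen of mice aged 2 months on a C57BL/6 background. In culture, cells of both groups received anti-CD3 and anti-CD28 antibodies together with IL-2. Drp1, encoded by Dnm1l, is the dynamin-related GTPase that divides mitochondria. The labels do not say which cells carry the deletion or how it was made, nor whether the replicates are separate mice or cultures, so the p-values measure the spread between these libraries, which may be technical.

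Replication-dependent histone genes are transcribed mainly in S phase, when new DNA has to be packaged. Their transcripts normally end just after a short conserved stem-loop instead of a poly(A) tail. The stem-loop binding protein SLBP recognises that hairpin and directs processing, translation and decay of the mRNA. Most variant histones are made throughout the cell cycle from ordinary genes, often with introns, and their mRNAs are polyadenylated. A poly(A) library therefore samples Hist genes mainly through the minority of their transcripts that carry a tail, and a change in such counts need not be a change in total histone mRNA.

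The 3′ ends are shown first because they decide how a histone transcript enters such a library. The pattern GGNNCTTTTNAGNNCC, read on the transcript strand after the stop codon, was found in a transcript of 61 of the 21877 protein-coding genes of GENCODE M21 (0.279%), of which 45 were histone rows of the name rule and 16 were other genes. It was present in 29 of the 41 reported Hist rows and in 1 reported variant row, H2afx. The sites below are 30 bases long, 5′ to 3′, with the stem-loop in capitals. The first 3 belong to Hist genes whose annotated transcript continues to a poly(A) signal, the next 4 to Hist genes whose transcript has the stem-loop but no such signal, and the last to H2afx, which has both.
Hist1h4i: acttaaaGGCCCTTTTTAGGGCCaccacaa
Hist3h2ba: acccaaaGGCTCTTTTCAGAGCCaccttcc
Hist1h1c: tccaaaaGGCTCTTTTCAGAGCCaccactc
Hist1h2bj: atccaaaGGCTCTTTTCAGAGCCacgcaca
Hist1h3c: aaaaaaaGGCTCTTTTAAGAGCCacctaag
Hist1h4d: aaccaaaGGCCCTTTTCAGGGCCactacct
Hist1h4b: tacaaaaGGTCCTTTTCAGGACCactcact
H2afx: ccacaaaGGCCCTTTTAAGGGCCaccacct

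The commonest form, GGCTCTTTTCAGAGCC, was in 15 reported Hist rows and is the same in Hist3h2ba, Hist1h1c and Hist1h2bj, which did not move together. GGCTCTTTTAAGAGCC and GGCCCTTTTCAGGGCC were in 5 rows each, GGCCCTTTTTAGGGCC in 2, and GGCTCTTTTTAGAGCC and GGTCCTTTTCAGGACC in 1 each. The annotated transcript ran 23 bases past the stem-loop in Hist1h2bj and 28 in Hist1h4b, against 169 in Hist3h2ba, 330 in Hist1h4i, 822 in H2afx and 840 in Hist1h1c. Hist2h2be, the Hist gene with the most counts, had no match to the pattern, and its transcript carried AATAAA 22 bases from the end. A poly(A) signal, AATAAA or ATTAAA in the last 50 bases, was in a transcript of 77.2% of all protein-coding genes.

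By these features 10 of the reported Hist rows had a poly(A) signal in the annotated transcript, 20 had the stem-loop only and 11 had neither in the annotated sequence. Of the last class, Hist1h1b, Hist2h2bb, Hist1h2ak, Hist1h2ai, Hist1h3i, Hist1h3h and Hist1h2bn have models that end at the stop codon. That of Hist1h2af ends 1 base past it. Such models could hold neither feature, so this class is not a kind of 3′ end. These classes come from the annotation, but they were drawn with the values of the genes already known, so the comparison between them below carries no test.

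The libraries held 24738017 to 34730475 counts. Levels are given as CPM, counts scaled to the library total and to the TMM factors of edgeR, where 1 count was worth 0.0288 to 0.0404 CPM before that scaling. The Dnm1l row stood at 123, 117 and 117 CPM in the wild-type libraries and 92.6, 92.9 and 101 in the KO libraries; it was lower in KO but far from absent (log2 fold change -0.32 ± 0.05 SE, adjusted p = 0.000728 by the quasi-likelihood test of edgeR, adjusted after Benjamini and Hochberg). The row counts the whole gene, and which exons were deleted is not given in the sources used here. Wild-type replicate 1 was the shallowest library and stood apart from its group: the chi-square per gene was 11.96 and 13.3 against wild-type replicates 2 and 3, and 2.54 between those. Results that turn on it are given without it below. T cell markers were present throughout (summed 4753 to 5015 CPM in wild type and 4684 to 4733 in KO), with 9 of 12 lower in KO, 1 higher (Il2ra) and 2 not passing. B cell markers summed to 198 to 231 and 215 to 231 CPM, with 2 of 9 higher and 1 lower. Myeloid markers summed to 38.4 to 41.1 and 34.0 to 36.5 CPM, with 1 higher and 2 lower of 4 tested and C1qa and C1qb at 0. The 8 erythroid markers summed to 9.16 to 11.3 and 5.54 to 7.02 CPM, with 2 higher and 1 lower of 3 tested and Hba-a2 at 0. The 5 megakaryocyte markers, none at 0, summed to 7.58 to 9.66 and 19.9 to 22.9 CPM, and all 3 tested were higher in KO. For these marker calls, the shares over all 14209 tested genes were 26.7% higher and 26.1% lower. The part of these cells in the histone values was not tested. In such bulk RNA, fewer cells of a type and less RNA per cell cannot be told apart.

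Hist genes were a trace of the RNA sequenced. All Hist rows together took 721, 814 and 834 counts in wild type and 988, 884 and 893 in KO, between 0.00262% and 0.00292% of each library, whereas variant rows took 0.0747% to 0.0983%. The median Hist row had 43 counts over the 6 libraries and the highest 1405, against a median of 8198 and a highest of 49005 among variants. Hist2h2be alone supplied 27.4% of Hist counts and Hist1h4i 19.6%. Per kilobase of annotated exon, Hist1h4i stood at 8.88 CPM per kb in wild type and Hist2h2be at 3.43, below the 8 most abundant variants, which ran from H3f3a at 13.3 to H2afz at 78.5 CPM per kb.

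The summed Hist level did not separate the groups: it was 30.7, 27.3 and 26.5 CPM in wild type and 27.7, 28.5 and 26.7 in KO (28.2 ± 2.24 and 27.6 ± 0.905, SD, n = 3 each), a KO over wild-type ratio of 0.981 that became 1.03 with library totals and without wild-type replicate 1. These and later sums take in all matching rows, also those under 10 counts. The sum hid members that differed in opposite directions. When all 17960 rows with 10 or more counts were fitted together, 3 Hist rows were higher in KO, 3 were lower and 35 of 41 did not pass an adjusted p of 0.05 (edgeR). In that fit 21.1% of all rows were called higher and 20.7% lower. In the edgeR test of genes passing its own count filter, 3 of the 16 Hist rows tested were higher and 3 lower. There, of genes with a mean under 10 CPM, as all Hist rows had, 20.9% were higher and 15.1% lower. The mean was higher in KO for 34 of the 41 reported Hist rows and lower for 7, against 51.6% higher over all rows with 10 or more counts. The median log2 fold change was 0.64 against 0.01 over all those rows. All 3 KO libraries lay above all 3 wild-type libraries in 9 Hist rows and below in 3, and the groups overlapped in 29; over all rows 28.1% lay above and 26.0% below.

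**Figure D1:**
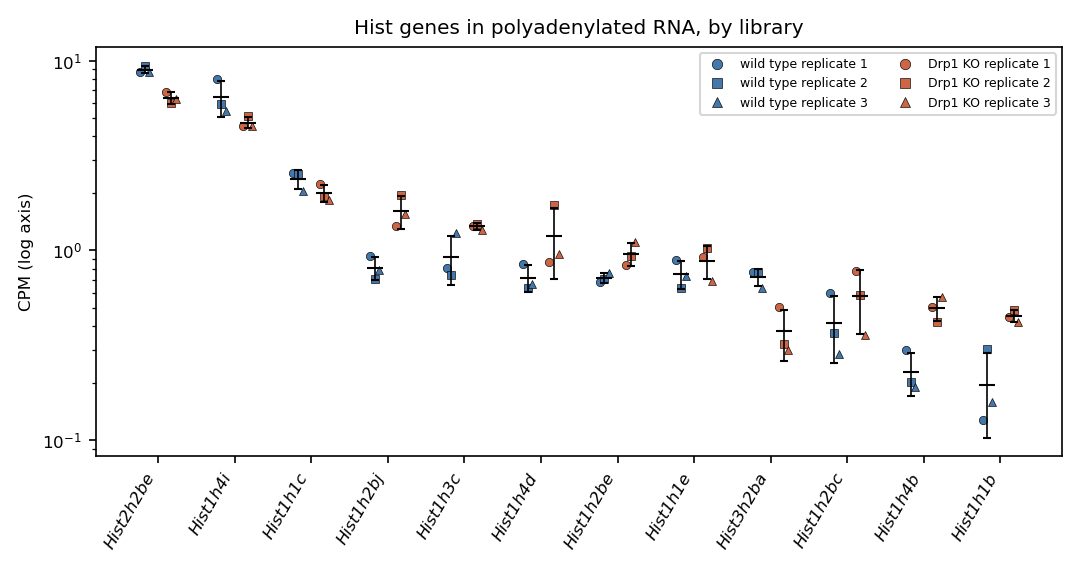
CPM (log axis) of the 10 most abundant Hist rows and of Hist1h4b and Hist1h1b in each of the 6 libraries, with horizontal bars for the mean and whiskers for 1 SD. Hist2h2be, Hist1h4i and Hist3h2ba lie lower in every KO library, and Hist1h2bj, Hist1h4b and Hist1h1b lie higher.

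The Hist genes that fell all had transcripts with a poly(A) signal. Hist2h2be, an H2B gene on chromosome 3 (chr3:96221119-96223738, mm10, 1 exon), stood at 8.77, 9.43 and 8.76 CPM in wild type and 6.89, 6.00 and 6.28 in KO. Every KO library was below every wild-type library, and the gene fell by 0.49 ± 0.10 on the log2 scale (adjusted p = 0.0017, edgeR). Its place among the Hist rows, and so in their sums, follows its name alone. The annotated transcript has a poly(A) signal and no match to the stem-loop pattern. Whether Hist2h2be is replication-dependent was not tested, so its fall cannot be read as one of a replication-dependent gene. None of the 50-base windows of its transcript occurs exactly in another annotated gene. Near matches and unannotated copies were not searched, so whether its counts depend on how shared reads were assigned was not tested.

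Hist1h4i, an H4 gene on chromosome 13 (chr13:22040636-22041362, minus strand), stood at 8.05, 5.91 and 5.42 CPM in wild type and 4.53, 5.09 and 4.54 in KO. The groups did not overlap, but wild-type replicate 1 was well above the rest. The gene fell by 0.44 ± 0.15 on the log2 scale (adjusted p = 0.0304, edgeR). Without wild-type replicate 1 the difference was -0.27 with an adjusted p of 0.0593, and the adjusted p was 0.0902 without KO replicate 1, 0.0932 without KO replicate 3 and 0.0523 with library totals in place of TMM factors.

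Hist3h2ba, an H2B gene of the small Hist3 cluster (chr11:58948920-58949533), stood at 0.766, 0.772 and 0.634 CPM in wild type and 0.504, 0.322 and 0.299 in KO, from 10 to 23 counts per library. KO libraries were below wild-type libraries throughout, and the gene fell by 0.92 ± 0.28 on the log2 scale (adjusted p = 0.0179, edgeR). The call rests on few counts: its adjusted p was 0.0575 without wild-type replicate 2, 0.0664 without KO replicate 2, 0.0721 without KO replicate 3 and 0.0700 in the DESeq2 test. Hist1h1c, a linker histone H1 gene and the third most abundant Hist row, was 2.38 ± 0.274 CPM in wild type and 2.01 ± 0.204 in KO (SD, n = 3 each), with overlapping groups and no call (log2 fold change -0.23 ± 0.16, adjusted p = 0.233, edgeR).

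Of the rises, that of Hist1h2bj was called under every alternative tried. This H2B gene (chr13:22043214-22043676) stood at 0.937, 0.705 and 0.793 CPM in wild type and 1.34, 1.97 and 1.55 in KO, from 21 to 61 counts per library. Every KO library was above every wild-type library, and the gene rose by 1.00 ± 0.22 on the log2 scale (adjusted p = 0.0032, edgeR). Of the 50-base windows of its transcript 59.4% also occur in other genes.

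Hist1h4b, an H4 gene (chr13:23757013-23757409), had 7, 6 and 6 counts in wild type and 18, 13 and 19 in KO, or 0.298, 0.201 and 0.190 against 0.504, 0.419 and 0.568 CPM. Hist1h1b, a linker histone H1 gene (chr13:21779883-21780625, minus strand), had 3, 9 and 5 counts in wild type and 16, 15 and 14 in KO. In both genes all KO libraries were above all wild-type libraries. They entered the edgeR test only through the KO libraries, since no wild-type library had 10 counts, and rose by 1.14 ± 0.32 and 1.15 ± 0.36 on the log2 scale (adjusted p = 0.0124 and 0.0204); in the fit of all rows with 10 summed counts, where that choice plays no part, the adjusted p was 0.0188 and 0.0288. Hist1h4b lost its call in the DESeq2 test (adjusted p = 0.0836), without wild-type replicate 3 (0.0526) and without KO replicate 3 (0.0504), and Hist1h1b in the DESeq2 test (0.0958) and without wild-type replicate 1 (0.0592), wild-type replicate 3 (0.0805) or KO replicate 2 (0.0618). Hist1h4b also overlaps 4930558J22Rik on the opposite strand, and the strand setting of the counting is not given in the sources used here.

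Other abundant Hist rows had higher means in KO without passing the edgeR test. Hist1h3c, an H3 gene, was 0.809, 0.738 and 1.24 CPM in wild type and 1.34, 1.39 and 1.28 in KO (log2 fold change 0.51 ± 0.22, adjusted p = 0.0761). Hist1h4d, an H4 gene, was 0.852, 0.638 and 0.666 CPM in wild type and 0.868, 1.74 and 0.956 in KO (0.72 ± 0.30, adjusted p = 0.0686). Their groups did not overlap, but in Hist1h4d KO replicate 2 was far above the other KO libraries. Without KO replicate 2 the log2 fold change of Hist1h4d was 0.36 (adjusted p = 0.280), and leaving out each library gave adjusted p from 0.0307 (without wild-type replicate 1) to that value, with 0.0410 without KO replicate 1. For Hist1h3c the range was 0.0165 without wild-type replicate 3 (log2 fold change 0.79) to 0.249 without wild-type replicate 2 (0.35). Both passed with library totals (adjusted p = 0.0488 and 0.0443), and Hist1h4d also with no filter (0.0214). Hist1h2be, an H2B gene, also kept its groups apart, at 0.681, 0.705 and 0.761 against 0.840, 0.935 and 1.11 CPM, with a log2 fold change of 0.41 ± 0.21 and an adjusted p of 0.124 (edgeR). It overlaps the H1 gene Hist1h1e on the same strand, and Hist1h1e was 0.754 ± 0.130 and 0.881 ± 0.176 CPM with overlapping groups (adjusted p = 0.429, edgeR). The remaining tested Hist rows, Hist1h2bc, Hist1h2bk, Hist1h2bm, Hist1h1d and Hist2h2bb, had log2 fold changes of 0.52, 0.53, 0.46, 0.64 and 0.11, and their groups overlapped. That of Hist1h2bc ran from 0.20 without KO replicate 1 to 0.82 without wild-type replicate 1, with no call in either. Among the rows too low for the edgeR filter, Hist1h2bh had 0, 2 and 0 counts in wild type and 4, 7 and 3 in KO, and Hist1h2bn had 1, 1 and 1 against 5, 2 and 5.

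**Figure D2:**
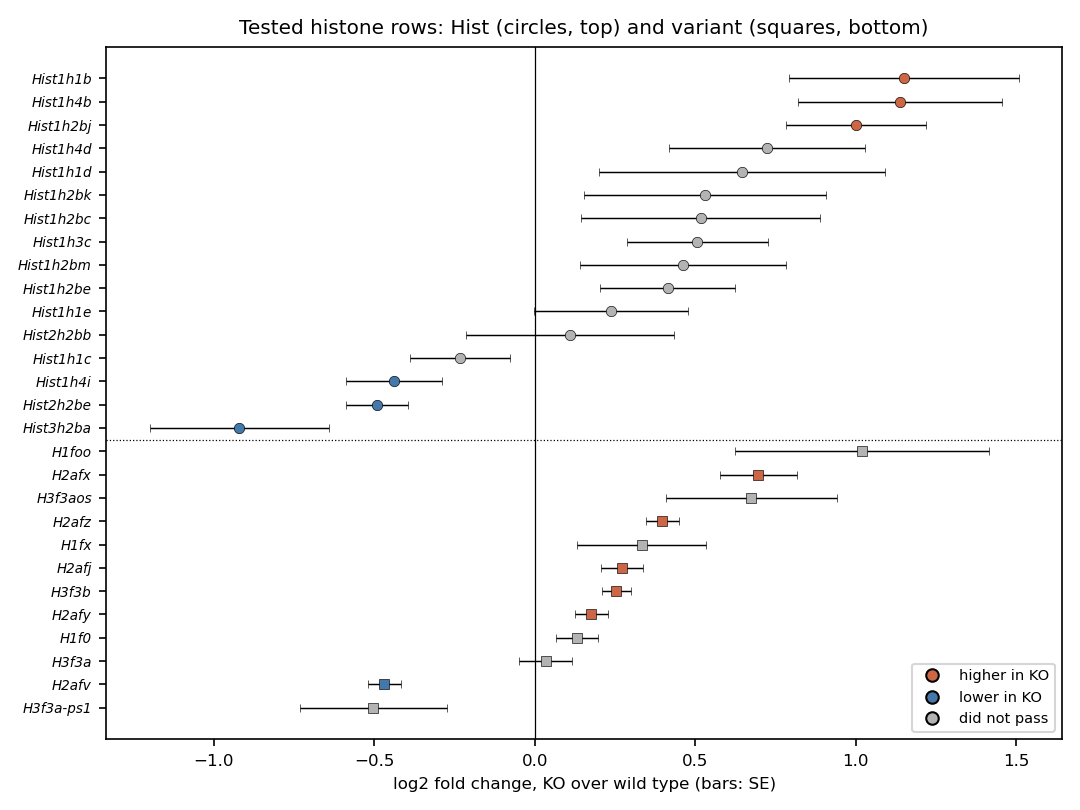
Log2 fold change (KO over wild type, x axis) with its SE for the 16 Hist rows (circles) and 12 variant rows (squares) that entered the edgeR test, coloured by call. Hist rows spread from -0.92 for Hist3h2ba to 1.15 for Hist1h1b with wide bars, and the abundant variants have narrow ones.

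Set apart by the annotated 3′ end, the summed Hist levels differed in opposite directions. Rows with a poly(A) signal, 10 of them reported, summed to 21.3, 20.0 and 18.7 CPM in wild type and 15.98, 15.6 and 15.0 in KO, a ratio of 0.776, and held all 3 falls and no rise. The KO libraries lay below, but Hist2h2be and Hist1h4i carried this difference: the others summed to 4.56 ± 0.120 and 4.41 ± 0.199 CPM (SD, n = 3 each), a ratio of 0.967 with overlapping groups and of 1.02 with library totals. The mean was higher in KO for 5 of the 10 reported rows and lower for 5, and their median log2 fold change was 0.09. In the fit of all 17960 rows with 10 or more counts, 21.1% were called higher and 20.7% lower.

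Rows with the stem-loop only, 20 of them reported, summed to 7.11, 5.402 and 6.03 CPM in wild type and 9.01, 10.1 and 8.79 in KO, a ratio of 1.502. All KO libraries lay above all wild-type libraries, the mean was higher in KO for 18 of the 20 rows (Hist1h3e and Hist1h2bb were the exceptions), and the median log2 fold change was 0.71. Of these rows, 2 were called higher and none lower (Hist1h2bj and Hist1h4b), with 18 not passing, beside 21.1% and 20.7% of all rows. The rows with neither feature in the annotated sequence, 11 of them reported, summed to 1.97 ± 0.253 and 2.81 ± 0.131 CPM (SD, n = 3 each). All 11 had a higher mean in KO, and 1 was called, Hist1h1b, whose model ends at the stop codon. Abundance and 3′ end go together here: the 3 most abundant Hist genes all have a poly(A) signal, and all had a lower mean in KO. Which of these features the direction follows was not tested. None of these class sums changed direction or came to overlap on leaving out a library or with another scaling, apart from the small poly(A) remainder just given. Without Hist2h2be and Hist1h4i, all other Hist rows summed to 12.7 ± 1.02 CPM in wild type and 16.5 ± 0.804 in KO, with all KO libraries above.

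**Figure D3:**
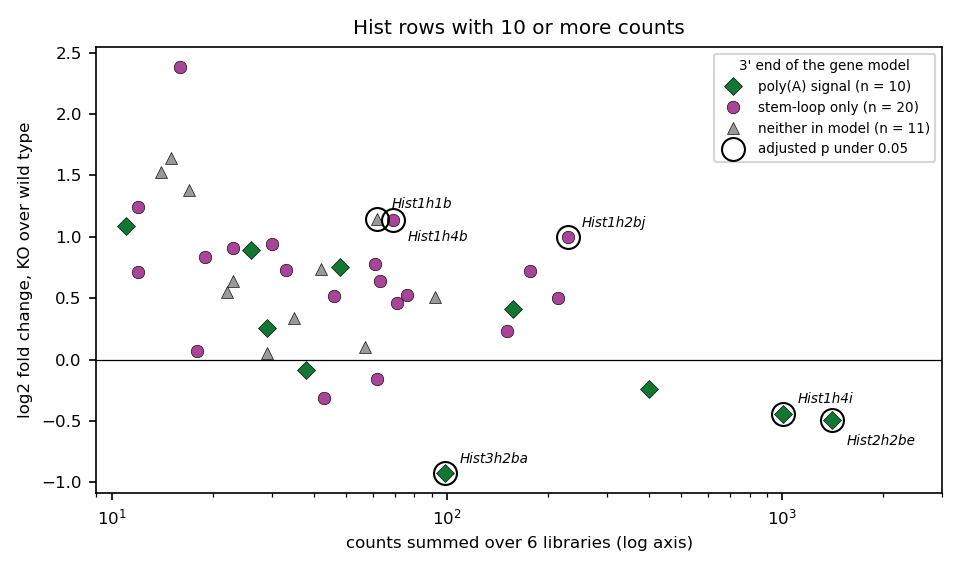
Log2 fold change (KO over wild type) of all 41 reported Hist rows from the fit of rows with 10 or more summed counts, against their summed counts (log axis), with symbols for the annotated 3′ end and rings around the 6 called rows. Most rows with the stem-loop only lie above 0, the 3 rows with the most counts lie below it, and the scatter widens at low counts.

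**Figure D4:**
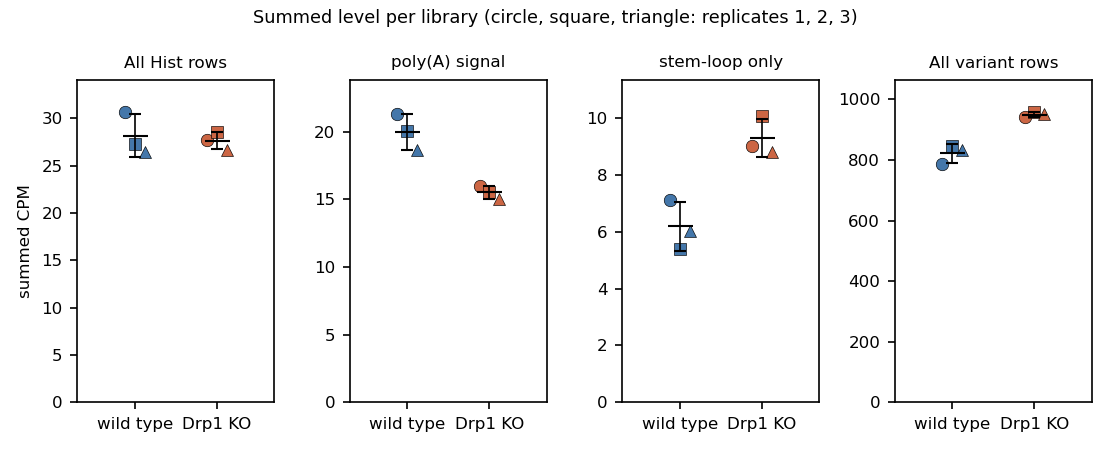
Summed CPM per library, from 0, for all Hist rows, Hist rows with a poly(A) signal, Hist rows with the stem-loop only and all variant rows, with means and 1 SD (n = 3 per group). The groups overlap for all Hist rows, KO is lower for rows with a poly(A) signal, and KO is higher for the stem-loop and variant rows.

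By the histone they encode, the H2A rows (8 reported) summed to 1.097 ± 0.203 CPM in wild type and 1.68 ± 0.256 in KO, each with a higher mean in KO, although none had enough counts to enter the edgeR test. The H3 rows (8 reported) summed to 2.08 ± 0.341 and 2.83 ± 0.0784 CPM, and 7 had a higher mean in KO. In both families the KO sums lay above the wild-type sums. The H2B rows (12 reported) summed to 13.1 ± 0.339 CPM in wild type and 11.8 ± 0.506 in KO. Every KO sum lay below, except with library totals, where the groups overlapped. Of these rows 1 was called higher and 2 lower, beside 21.1% and 20.7% of all rows. Yet 9 of the 12 had a higher mean in KO, and Hist2h2be alone went from 8.99 to 6.39 CPM. The sums of the H4 rows (8.17 ± 1.42 and 7.38 ± 0.751 CPM, 8 reported) and the H1 rows (3.68 ± 0.386 and 3.88 ± 0.229 CPM, 5 reported) overlapped between groups (SD, n = 3 for all). The mean was higher in KO for 6 of the 8 H4 rows and 4 of the 5 H1 rows, while Hist1h4i went from 6.46 to 4.72 CPM.

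Hist2h2be fell and Hist1h2bj rose within the H2B family. Within each library, the ratio of Hist2h2be to Hist1h2bj, both H2B genes, per kilobase of exon was 1.65, 2.36 and 1.95 in wild type and 0.906, 0.539 and 0.714 in KO. The ratio of the H4 genes Hist1h4i to Hist1h4d, of which the latter was not called, was 14.8, 14.5 and 12.7 in wild type and 8.18, 4.58 and 7.44 in KO. These pairs were chosen after their values were seen, and the ratios carry no test. Hist1h4i and Hist1h2bj, which were called in opposite directions, lie in 1 stretch of the Hist1 cluster in the order Hist1h2bk, Hist1h4i, Hist1h2ag, Hist1h2bj. Hist1h4i is followed after 1097 bases by Hist1h2ag (chr13:22042460-22042944, minus strand), which had 5, 2 and 2 counts in wild type and 10, 5 and 6 in KO, and that gene after 269 bases by Hist1h2bj.

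The upstream sequences of 2 genes that rose and 2 that fell are shown because these genes moved in opposite directions. They are the 150 bases before the RefSeq start of each gene, on the gene's strand and in the mm10 build, at chr13:22043048-22043197 (plus), chr13:23756787-23756936 (plus), chr13:22041363-22041512 (minus) and chr11:58948761-58948910 (plus). Capitals mark every CCAAT and TATAAA string on either strand and at any distance from the start (ATTGG and TTTATA are their reverse complements). Whether a marked string acts as a promoter element was not tested, and the TATAAA of Hist1h4i lies at the end of its stretch far from the start.
Hist1h2bj: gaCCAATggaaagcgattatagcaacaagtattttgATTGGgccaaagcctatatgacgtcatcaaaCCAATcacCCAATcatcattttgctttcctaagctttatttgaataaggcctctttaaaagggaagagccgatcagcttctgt
Hist1h4b: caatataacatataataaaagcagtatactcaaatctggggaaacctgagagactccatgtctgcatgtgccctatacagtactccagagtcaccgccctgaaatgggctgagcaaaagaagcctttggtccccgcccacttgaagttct
Hist1h4i: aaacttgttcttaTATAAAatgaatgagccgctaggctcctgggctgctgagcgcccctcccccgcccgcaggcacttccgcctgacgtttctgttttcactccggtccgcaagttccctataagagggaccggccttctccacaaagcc
Hist3h2ba: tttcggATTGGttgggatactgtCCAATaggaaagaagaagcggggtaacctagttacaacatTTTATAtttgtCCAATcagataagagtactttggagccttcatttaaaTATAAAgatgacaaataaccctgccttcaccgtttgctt

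A RefSeq promoter was matched for 45 of the 54 reported rows, 36 Hist and 9 variant. In the 250 bases before the start, searched on both strands, CCAAT was found in 31 of 36 Hist promoters (86.1%), 5 of 9 variant promoters and 33.8% of all 32851 RefSeq promoters. The H4 genes were the exception, with CCAAT in 2 of 7. TATAAA was in 18 of 36 Hist promoters, in none of the 9 variant promoters and in 12.4% of all. The octamer ATTTGCAT, the site known from H2B genes, was in 5 of 10 H2B and 4 of 8 H2A promoters, in no other reported promoter, and in 1.60% of all. All 10 matched H2B promoters held CCAAT, among them those of Hist1h2bj, which rose, and Hist3h2ba, which fell. The bearing of these strings on the direction of change was not tested.

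Variant histone mRNA was higher in KO as a sum, at 787, 846 and 834 CPM in wild type and 940, 958 and 950 in KO (822 ± 31.0 and 949.6 ± 8.86, SD, n = 3 each), a ratio of 1.16 with no overlap. In the fit of rows with 10 or more counts, 5 of 13 variant rows were called higher (H2afz, H3f3b, H2afy, H2afx and H2afj), 1 lower (H2afv) and 7 did not pass, beside 21.1% of all rows called higher and 20.7% lower. The median log2 fold change was 0.25 against 0.01 over all rows. KO libraries lay above wild type in 7 variant rows and below in 2, against 28.1% and 26.0% of all rows. H2afy, H3f3b and H2afz supplied 71.7% of variant counts.

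**Figure D5:**
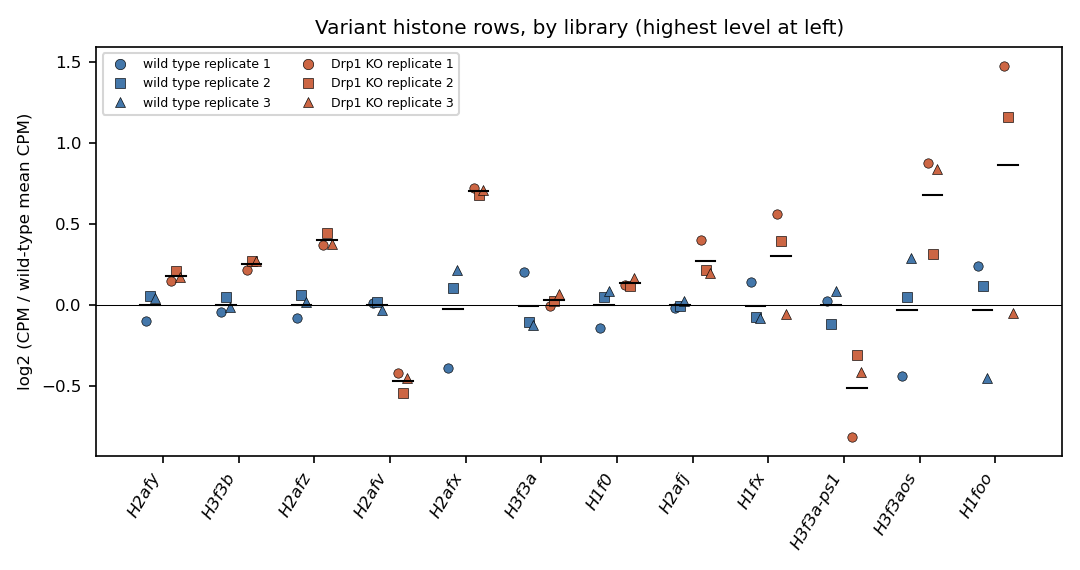
Log2 ratio of each library's CPM to the wild-type mean for the 12 variant rows in the edgeR test, ordered by level, with bars for the mean of the plotted values. H2afz and H2afx sit above 0 in all KO libraries, H2afv sits below, and wild-type replicate 1 is the lowest wild-type library for H2afx and the highest for H3f3a.

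The H2A.Z genes moved in opposite directions. H2afz, which encodes H2A.Z.1, a variant placed around transcription start sites, stood at 132, 145 and 141 CPM in wild type and 180, 190 and 181 in KO. H2afv, which encodes the closely similar H2A.Z.2, stood at 81.0, 81.3 and 78.8 CPM in wild type and 60.1, 55.3 and 58.9 in KO. Neither gene's groups overlapped.

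H2afz rose by 0.40 ± 0.05 (adjusted p = 0.000193) and H2afv fell by 0.47 ± 0.05 on the log2 scale (adjusted p = 9.26e-05, edgeR for both). Within each library, the ratio of H2afz to H2afv per kilobase of exon was 1.495, 1.64 and 1.65 in wild type and 2.76, 3.16 and 2.83 in KO. Other genes share 29.2% of the 50-base windows of H2afz and none of those of H2afv.

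H2afx, which encodes the variant phosphorylated at DNA breaks, stood at 28.4, 40.1 and 43.3 CPM in wild type and 61.4, 59.6 and 61.0 in KO. The KO libraries lay close together and above all wild-type libraries, of which replicate 1 was the lowest. H2afx rose by 0.70 ± 0.12 on the log2 scale (adjusted p = 0.000887, edgeR), and by 0.54 without wild-type replicate 1 (adjusted p = 6.81e-08). It is the only reported variant with the stem-loop, and its annotated transcript has 1 exon and continues to a poly(A) signal.

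H2afj and H2afy rose less. H2afj stood at 34.7, 34.97 and 35.6 CPM in wild type and 46.3, 40.7 and 40.2 in KO, with no overlap, and rose by 0.27 ± 0.07 (adjusted p = 0.0055, edgeR). H2afy, which encodes macroH2A1, a variant with a large additional domain, stood at 230, 256 and 254 CPM in wild type and 273, 286 and 279 in KO, again with no overlap. It rose by 0.18 ± 0.05 (adjusted p = 0.0153, edgeR), but its adjusted p was 0.0653 without KO replicate 2 and 0.0534 without KO replicate 3. H2afy2, the macroH2A2 gene, had 5 to 14 counts per library and overlapping groups.

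H3f3a and H3f3b encode the same protein, H3.3, whose deposition does not depend on DNA replication. H3f3b stood at 186, 198 and 190 CPM in wild type and 222, 230 and 231 in KO, with no overlap, and rose by 0.25 ± 0.05 (adjusted p = 0.0011, edgeR). H3f3a stood at 53.6, 43.3 and 42.9 CPM in wild type and 46.4, 47.5 and 48.9 in KO. Wild-type replicate 1 was the highest library of all and the other wild-type libraries were below KO.

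H3f3a was not called with all libraries (log2 fold change 0.03 ± 0.08, adjusted p = 0.747, edgeR), and without wild-type replicate 1 it was higher in KO by 0.14 (adjusted p = 0.0277). The antisense row H3f3aos, which overlaps H3f3a, was 0.518 ± 0.127 CPM in wild type and 0.841 ± 0.170 in KO (adjusted p = 0.0548, edgeR), and the pseudogene H3f3a-ps1, with 54.3% of its windows shared, was 0.837 ± 0.0595 and 0.593 ± 0.105 CPM (adjusted p = 0.0885). Neither passed with all libraries, although the adjusted p of H3f3aos was 0.0383 with library totals and ran from 0.0382 without KO replicate 2 to 0.159 without KO replicate 1, and reads of H3f3a may not be separated from either.

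Linker histone variants did not pass the edgeR test. H1f0, the H1 variant of resting and differentiated cells, stood at 38.0, 43.4 and 44.4 CPM in wild type and 45.6, 45.5 and 47.0 in KO, with no overlap but a log2 fold change of 0.13 ± 0.07 (adjusted p = 0.113). Without wild-type replicate 1 it was 0.07 (adjusted p = 0.302), and with library totals the adjusted p was 0.0369. H1fx was 1.27 ± 0.114 and 1.59 ± 0.333 CPM with overlapping groups (adjusted p = 0.187). H1foo, the oocyte H1, was 0.511, 0.470 and 0.317 CPM in wild type and 1.20, 0.967 and 0.418 in KO, with KO replicate 3 among the wild-type values (log2 fold change 1.02 ± 0.40, adjusted p = 0.0511); leaving out each library gave values from 0.68 without KO replicate 1 (adjusted p = 0.213) to 1.35 without KO replicate 3 (0.0063). Its adjusted p was 0.160 without wild-type replicate 3, 0.0228 without wild-type replicate 1, 0.0358 with library totals, 0.0460 with upper quartile factors and 0.0068 with no filter.

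Genes that make, process or carry histones were read from lists drawn up from general knowledge, with 26.7% of all 14209 tested genes called higher and 26.1% lower and a median log2 fold change of 0.01. Of 18 genes for histone mRNA transcription, 3′ processing and decay, 10 were higher in KO, 2 were lower and 6 did not pass, with a median log2 fold change of 0.17. Slbp stood at 69.2, 80.7 and 72.9 CPM in wild type and 90.2, 96.1 and 95.4 in KO, with no overlap, and rose by 0.34 ± 0.06 (adjusted p = 0.0014, edgeR). Ncbp2, the smaller cap-binding subunit, rose by 0.53 and Cpsf2, a subunit of the cleavage complex, by 0.40. Zcchc11, a terminal uridylyltransferase, fell by 0.26 and Eri1, the exonuclease that trims the histone stem-loop, fell by 0.19. Npat and Casp8ap2, factors of the histone locus body, had log2 fold changes of -0.21 and 0.10 and were not called (adjusted p = 0.164 and 0.125).

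Of 16 general polyadenylation genes, 4 were higher, 2 lower and 10 did not pass (median 0.02). Pabpc4, a poly(A)-binding protein gene, rose by 0.37 and Papola, the main nuclear poly(A) polymerase gene, by 0.18, while Pcf11 fell by 0.22 and Pabpc1 fell by 0.16. Of 14 genes of the RNA exosome and its nuclear cofactors, which degrade nuclear RNA, 10 were higher and 4 lower (median 0.38). Exosc1 rose by 0.80 and Exosc2 by 0.79, while Exosc8 fell by 0.68 and the cofactor gene Zcchc8 fell by 0.21. RNAs without a poly(A) tail summed to 5.04 to 5.92 CPM in wild type and 4.98 to 6.00 in KO over 15 rows, 7 of them at 0. These ranges overlapped, and none of the 3 tested rows (Rn7sk, Rpph1 and Rmrp) was called. Most of the sum was Rn7sk, at 3.42 to 4.51 CPM in wild type and 3.27 to 3.79 in KO. Only Terc kept the groups apart, with 0, 1 and 1 counts in wild type and 2, 4 and 4 in KO. The sum therefore cannot say how far untailed Hist RNA passed into the libraries.

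Of 17 replication-coupled histone chaperone genes, 11 were higher, 1 lower and 5 did not pass (median 0.28). Nasp, a chaperone of soluble H3 and H4, rose by 0.66 and Rbbp7, a histone-binding subunit, by 0.47, and Tonsl fell by 0.14. Of 21 genes for chaperones and exchangers of variant histones, 8 were higher, 4 lower and 9 did not pass (median 0.06). Ruvbl1, an ATPase of the H2A.Z exchange complexes, rose by 0.84 and Anp32e, which removes H2A.Z, by 0.46. Hjurp, the chaperone of the centromeric H3 variant CENP-A, fell by 0.60 and Ubn2, of the HIRA complex for H3.3, fell by 0.42. Cenpa itself, which the name rule leaves out, stood at 385, 330 and 334 CPM in wild type and 315, 290 and 290 in KO, and fell by 0.23 ± 0.06 (adjusted p = 0.0130, edgeR).

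Most of the listed S phase genes were higher in KO. Of 26 such genes 25 were higher in KO, none was lower and 1 did not pass; they summed to 3077 to 3436 CPM in wild type and 4259 to 4705 in KO, with a median log2 fold change of 0.50. Of 12 genes of G2 and M phase, 6 were higher, 1 lower and 5 did not pass (median 0.16). For both lists, the shares over all 14209 tested genes were 26.7% higher and 26.1% lower. The part of cell cycle stage in the histone values was not tested.

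Copies limit what the Hist counts can say of single genes. A median of 43.8% of the 50-base windows of a reported Hist row (range 0 to 93.9%) also occur in another gene, against 2.19% for reported variants. The 14 Hist rows at 0 had a median of 89.6% and 6 were above 90%, among them Hist2h2aa2 and Hist2h3c1 at 100%, where a 0 cannot be read as a silent gene. At the low end of these rows Hist1h1t had no shared window and Hist1h2aa 2.35%. How reads that match several copies were counted is not given in the sources used here. Of the 6 called Hist rows, Hist2h2be and Hist1h1b had no shared window, Hist3h2ba 22.1%, Hist1h4i 28.9%, Hist1h4b 54.6% and Hist1h2bj 59.4%.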

How the data were processed

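RNA of 3 wild-type and 3 Drp1 KO samples of activated spleen T cells was prepared with a stranded mRNA library kit, per the labels' protocols. The authors deposited raw read counts per gene symbol; the submitters' processing notes name STAR 2.5.2, HTSeq 0.6.1, DESeq2 1.12, FastQC, Cufflinks and mm10 without roles, and the sources used here do not give the strand setting, annotation or handling of multiple matches. Of 45808 rows, 27 had become dates in a spreadsheet (0.241% of counts); they stayed in the totals.

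Genes were tested with edgeR 4.0.16 in R 4.3.3: TMM factors (0.949 to 1.03), filterByExpr (14209 genes), and the quasi-likelihood F test over 6 libraries with 4 residual degrees of freedom, Benjamini-Hochberg adjusted over all genes and called under 0.05. The biological coefficient of variation was 6.13%. Since that filter favours genes high in a group, member counts come from a fit of all 17960 rows with 10 or more summed counts, added after the data were seen. The scripts were tested on simulated data. 3 counts correspond to 0.0864 to 0.121 CPM.

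The members, gene lists and classes were chosen with earlier results of these data known. Named were all tested variants, the 10 Hist rows of highest mean CPM, called Hist rows, rows beside the 10-count limit, and per list the members of smallest adjusted p in each direction; H2afy2, the other tested Hist rows, Hist1h2bh, Hist1h2bn and Hist1h2ag were named after their values were seen. Gene models and stem-loops are from GENCODE M21, promoters from RefSeq. Alternatives were DESeq2 1.42.0, limma-voom (limma 3.58.1), other scalings, filters and thresholds, a replicate block, and leaving out each library. Replicate numbers were not treated as pairs.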

Additional observations from a re-analysis of the deposited data

How the results depend on the processing

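Hist2h2be, Hist1h2bj, H2afz, H2afv, H2afx, H2afj and H3f3b kept their direction and call under all 16 alternatives. The 6 calls among Hist rows became 3 in the DESeq2 test, 3 with a filter of 1 CPM in 3 libraries, which left 5 Hist rows to test, and 2 at an adjusted p under 0.01; leaving out each library gave 3 to 6, the lowest without KO replicate 3. With library totals in place of TMM factors, which moved the median of all genes from 0.01 to 0.08, 5 Hist rows were higher and 2 lower in place of 3 and 3, and the summed variant ratio moved from 1.16 to 1.22 (1.13 to 1.17 on leaving out a library). The summed Hist ratio moved from 0.981 to 1.11 without Hist2h2be (0.948 to 1.03 on leaving out a library). Variant calls ran from 5 to 9 (6 to 8 on leaving out a library), and calls over all genes from 5369 to 7900 (5985 to 7534). H3f3a ran from -0.0281 without wild-type replicate 3 and -0.0168 without wild-type replicate 2, neither called, to 0.1428 without wild-type replicate 1, which was called. The cause of these changes was not tested.

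Deviations of same-numbered libraries correlated at 0.24, 0.21 and 0.013, and wild-type replicate 3 correlated best with KO replicate 2, so the numbers were not taken as pairs. With the replicate block, 6 Hist rows, 7 variant rows and 7900 genes were called. The variant row gained was H1foo (log2 fold change 0.96, adjusted p = 0.0152), and the block changed no other call among the named histone rows.

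Depth is a limit for the Hist results: 25 of 41 reported Hist rows were too low for the edgeR filter, and a missing call among them does not show that the level was alike.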
